A study of Mus musculus with 9 samples.

Results

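The Notch genes described here are 4 receptors (Notch1, Notch2, Notch3 and Notch4), 4 ligands (Dll1, Dll4, Jag1 and Jag2) and 2 target genes (Hes1 and Hey1), chosen by name. All 10 were on the array, each as 1 probe set, among 19505 genes with a symbol. RNA came from the border of a myocardial infarct, dissected under a microscope after the infarct core and the remote myocardium had been removed. The infarct was made by ligating the left anterior descending coronary artery in female SCID mice aged 80 to 100 days, a host without functional T and B lymphocytes, and the hearts were taken 4 weeks later. Every mouse in the 3 groups had the infarct. The groups differed in what was injected: saline, iCMs (cardiomyocytes differentiated from induced pluripotent stem cells and cultured until they beat), or iCM-Ex (exosomes, the small vesicles shed by cells, collected by precipitation from such iCMs). Each group had 3 Clariom S arrays, called biological replicates in the labels, which do not say whether tissue from several mice was pooled. The species of the stem cells is not given in the sources used here.

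Notch signalling passes between touching cells. A ligand on one cell pulls on a receptor on its neighbour, the receptor is cut by ADAM proteases and then by gamma-secretase, and its freed intracellular part joins the DNA-binding protein RBPJ to switch on genes such as those of the HES and HEY families of repressors. In blood vessels DLL4 on the leading cell of a sprout restrains sprouting by its neighbours through NOTCH1, while JAG1 works against DLL4. NOTCH3 is the receptor of smooth muscle cells and pericytes, NOTCH4 is largely endothelial, and NOTCH1 and JAG1 also act in heart muscle and its connective tissue cells.

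The DNA just before the start sites of Dll4 and Notch1 is shown because these were the members that passed the test below. Each run is 250 bases, 5′ to 3′ in the direction of the gene, from RefSeq on GRCm38.p6, with capitals marking the GC box GGGCGG on either strand. The Dll4 window is chr2:119325534-119325783 on the plus strand, with 2 matches and a GC content of 65.6%. The Notch1 window is chr2:26503823-26504072 on the minus strand, with 5 matches and a GC content of 66.0%.
Dll4: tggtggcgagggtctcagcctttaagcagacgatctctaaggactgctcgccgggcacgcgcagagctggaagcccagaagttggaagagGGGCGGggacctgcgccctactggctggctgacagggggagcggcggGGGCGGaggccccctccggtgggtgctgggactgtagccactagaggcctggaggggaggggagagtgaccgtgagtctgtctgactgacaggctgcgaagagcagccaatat
Notch1: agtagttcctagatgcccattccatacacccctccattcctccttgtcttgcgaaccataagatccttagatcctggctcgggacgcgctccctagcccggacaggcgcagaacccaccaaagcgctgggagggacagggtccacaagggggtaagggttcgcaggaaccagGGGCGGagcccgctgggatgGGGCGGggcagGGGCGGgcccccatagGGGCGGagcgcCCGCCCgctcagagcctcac
A GC box lay in 5 of 9 member windows (Notch1, Notch2, Notch3, Dll4 and Jag2) and in 32.7% of all 32851 windows of this length. Among the other Notch pathway genes listed below it lay in 32 of 52 windows (61.5%), so it was not particular to the members. The letters TGGGAA, the core that RBPJ binds, were searched on both strands and do not overlap the GC box. They were in 0 of the 9 member windows, which covered 8 members (Dll1 had a pair of windows), and in 21.6% of all windows. Hes1 and Hey1 had no entry in the table used.

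The same letters were present before the starts of the target genes Hes5 and Hey2, which belong to the wider pathway list below. They are shown with 12 bases on either side, in capitals, and lie on the strand opposite to the gene. The Hes5 stretch is chr4:154960685-154960714 on the plus strand, beginning its match 226 bases before the start, and a further match lay in the same window. The Hey2 stretch is chr10:30842973-30843002 on the minus strand, 207 bases before the start.
Hes5: agggcgagcgcgTTCCCAcagcccggacat
Hey2: tgcgcggtggcaTTCCCAcgcctctgccaa
The windows of the targets Hes6, Nrarp and Efnb2 held no match, and over the wider list 14 of 52 windows (26.9%) did, beside the 21.6% of all windows. A match is a description of the sequence and not evidence of binding in these hearts.

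The deposited values are log2 signals. The median signal of the array's negative control probes lay between 4.76 and 5.56, and a level under it is close to background, so how large a change into or out of that range was is uncertain. Control separation, the median of the positive control probes minus that of the negative ones, spanned 2.47 to 3.21 on the iCM arrays, 3.26 to 3.56 on the saline arrays and 3.63 to 4.01 on the iCM-Ex arrays, with no overlap between groups. It therefore cannot be told apart from the treatment, also in the fits below that use it as a covariate. Of the tissue checked by markers, 9 of 10 endothelial markers were measured, and none lay below the negative controls on any array. Cardiomyocyte markers averaged 16.21 to 18.07. Markers of lung epithelium stood out in iCM replicate 1 (mean of 10 genes 12.13) and iCM-Ex replicate 3 (8.92), with 4.84 to 6.34 elsewhere. Of these genes, Sftpc was also at 11.02 in iCM replicate 2 and 6.83 in iCM replicate 3. It was at 4.82 to 5.96 on the saline arrays and iCM-Ex replicates 1 and 2. Markers of fast skeletal muscle and fat stood out in iCM replicate 2, at means of 12.80 and 8.94 against 4.82 to 6.07 and 4.28 to 5.67 on the other arrays. Saline replicate 1 had a median gene signal of 5.44, against 5.64 to 5.70 elsewhere.

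The first comparison set hearts given iCMs against those given saline. The receptor gene Notch1 fell, and the other 9 members did not pass the threshold, an adjusted p of 0.05 in a limma fit of all 9 arrays with Benjamini-Hochberg adjustment over all genes. That is 1 of 10 members, where 3.67% of all genes tested were called, 2.33% as lower and 1.34% as higher. An unadjusted p under 0.05 was found for 4 of 10 members and 20.5% of all genes. The arrays of the groups did not overlap for 5 members, Notch1, Notch3, Dll4 and Jag1 lying lower and Dll1 higher, against 24% of all genes, 10.2% lower and 13.8% higher. Member differences had a median of −0.33, with 8 of 10 lower (7 of 10 under quantile normalisation). Over all genes the median was 0.08 and 44.5% were lower.

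Comparing exosomes with saline, the ligand gene Dll4 fell and was again 1 of 10 members called, where 0.349% of all genes were, 0.128% as lower and 0.22% as higher. An unadjusted p under 0.05 was found for 4 of 10 members and 15.2% of all genes. Arrays did not overlap for 3 members, Notch1, Dll4 and Jag1, all lower in iCM-Ex, against 21.7% of all genes, 9.53% lower and 12.2% higher. The median member difference was −0.41, with 8 of 10 lower, beside 0.04 and 46.5% lower over all genes. This comparison and the one before share the saline arrays.

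Set directly against each other, iCM-Ex hearts had less Dll4 signal than iCM hearts. Dll4 was the member called, where 1.07% of all genes were, 0.272% as lower and 0.795% as higher. An unadjusted p under 0.05 was found for 2 of 10 members and 14.5% of all genes. The arrays of Dll1 and Dll4 did not overlap and were lower in iCM-Ex, against 20.2% of all genes, 10% lower and 10.2% higher. The median member difference was −0.16, with 6 of 10 lower, beside −0.04 and 53.9% lower over all genes. An F test over the 3 groups called Dll4 (limma adjusted p = 0.0148) and Notch1 (limma adjusted p = 0.0348), where 3.32% of all genes were called and 21.8% had an unadjusted p under 0.05. Without the 3 arrays high in lung, muscle or fat markers, which leaves 1 iCM array assumed to vary like the others, 0 members were called by limma in any of these tests, and the lowest of the limma adjusted p for the differences given above was 0.286. Over all genes that fit called 6, 0 and 0 in the order given and 0 by the F test.

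**Figure D1:**
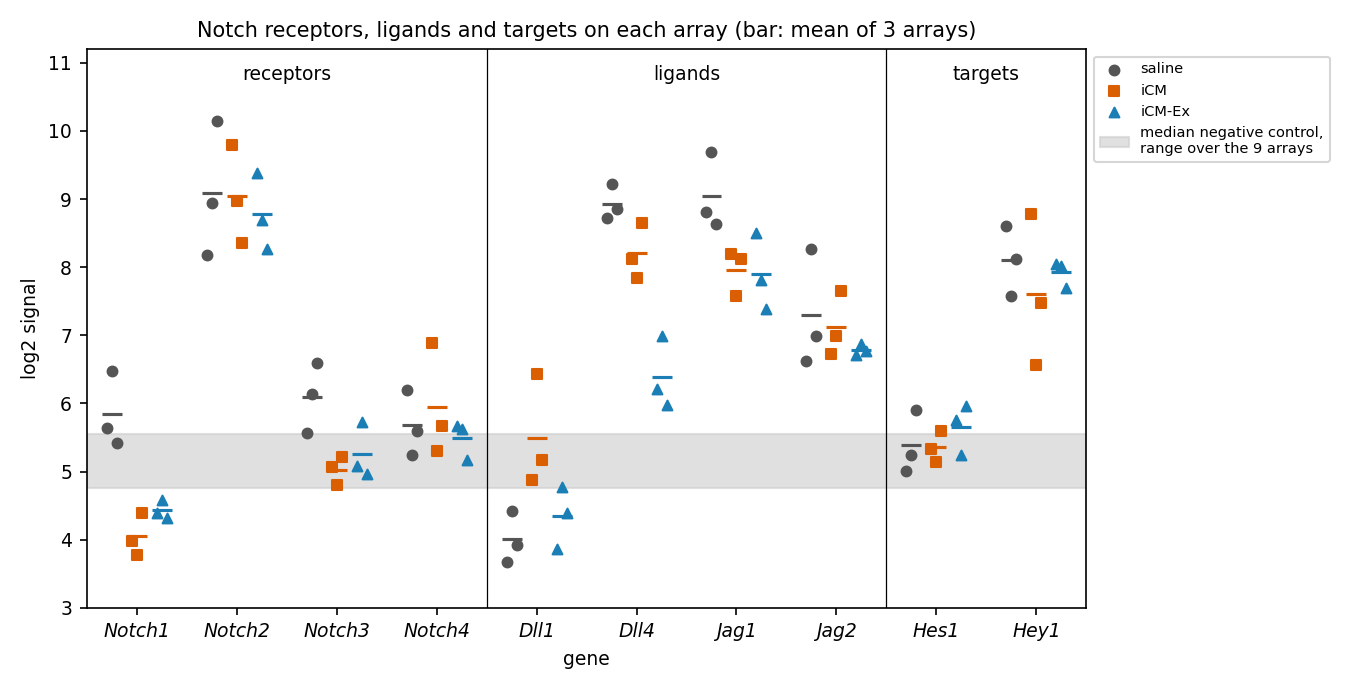
Log2 signal (vertical axis) of each Notch gene on each of the 9 arrays, with points for single arrays, bars for the mean of 3 and a grey band for the range of the median negative control, 4.76 to 5.56. The 3 iCM-Ex points of Dll4 lie between 5.97 and 6.99, under every other array, and those of Notch1 after either treatment lie under the band.

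**Figure D2:**
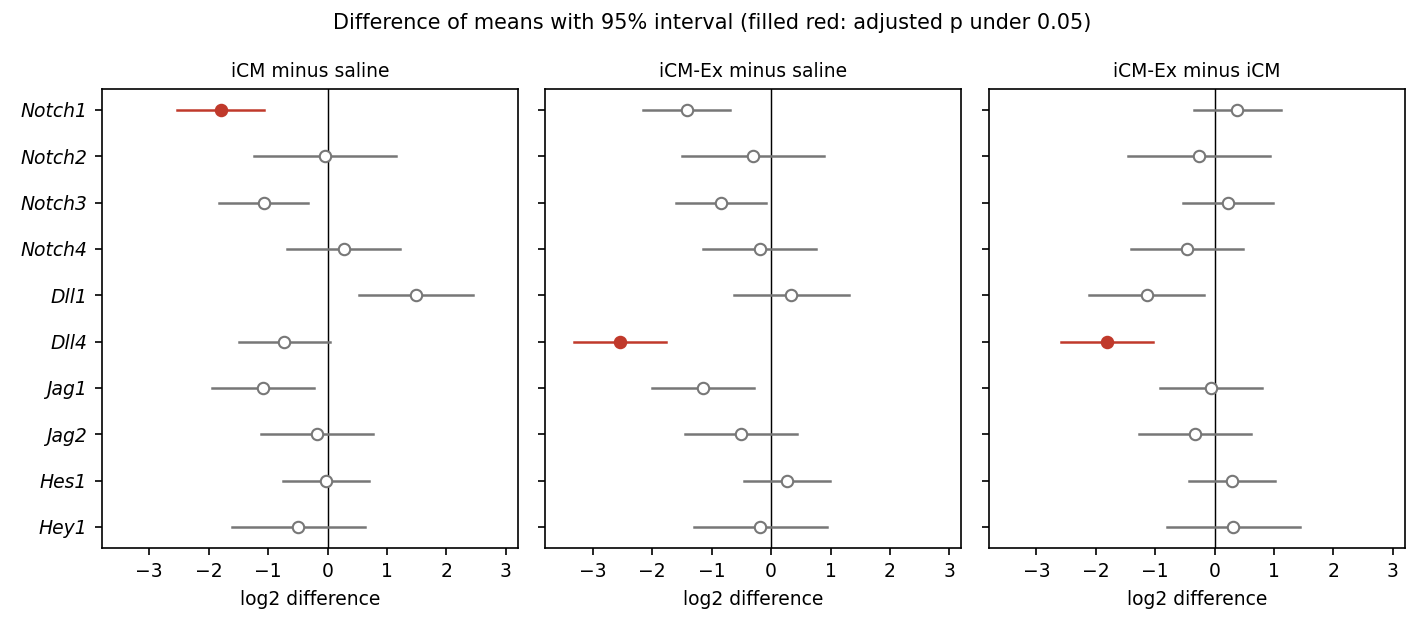
Differences of mean log2 signal (horizontal axis) with their 95% intervals for the 10 genes in the 3 comparisons, filled red where limma's adjusted p was under 0.05. The filled points are Notch1 at −1.80 after iCMs and Dll4 at −2.54 after iCM-Ex relative to saline and at −1.81 relative to iCM.

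Among the ligands, Dll4 encodes the Delta-type ligand of arterial and sprouting endothelium. Its log2 signal was 8.72, 9.23 and 8.85 on the saline arrays, 8.12, 7.84 and 8.65 on the iCM arrays and 6.21, 6.99 and 5.97 on the iCM-Ex arrays. The iCM-Ex arrays were the lowest 3 of the 9, and all were above the negative controls. Group means were 6.39 ± 0.53 for iCM-Ex, 8.20 ± 0.42 for iCM and 8.93 ± 0.27 for saline (SD, n = 3 arrays). Dll4 fell by 2.54 ± 0.35 (log2, SE) in iCM-Ex relative to saline, a 5.82-fold lower signal (limma adjusted p = 0.0291), and ranked 15 of 19505 genes by p. Relative to iCM it fell by 1.81 ± 0.35, or 3.52-fold (limma adjusted p = 0.0443). The iCM arrays lay between the other groups without overlap, but the difference of −0.73 from saline had a 95% interval of −1.50 to 0.04 (limma adjusted p = 0.272). In bulk tissue, fewer cells of a type and less RNA per cell cannot be told apart.

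The size of the Dll4 differences varied little with the arrays used, while the adjusted p passed and missed the threshold. Leaving out each array in turn gave −2.84 to −2.33 for iCM-Ex minus saline, with the call kept in 3 of 9 cases. The limma adjusted p was 0.188 without iCM-Ex replicate 3, 0.173 without saline replicate 2, 0.0832 without iCM-Ex replicate 2, 0.0825 without saline replicate 1, 0.0516 without iCM replicate 3 and 0.0506 without iCM replicate 1. For iCM-Ex minus iCM the range was −2.11 to −1.59, and the call was kept in 1 of 9 cases, without saline replicate 1. There the adjusted p was 0.211 and 0.12 without iCM-Ex replicates 3 and 2, 0.104, 0.097 and 0.0552 without iCM replicates 3, 2 and 1, 0.0753 and 0.055 without saline replicates 2 and 3, and 0.068 without iCM-Ex replicate 1. With control separation as a covariate the differences were −2.89 (adjusted p = 0.0529) and −2.69 (0.382).

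Endothelial markers went both ways in iCM-Ex hearts. Cdh5, the cadherin of endothelial junctions, was at 12.17, 12.52 and 12.15 on the iCM-Ex arrays, below all others (13.17 to 13.72), and its difference from saline was −1.14 ± 0.27 (limma adjusted p = 0.0978). The adhesion molecule gene Pecam1 was likewise lowest on the 3 iCM-Ex arrays, at 11.01 to 11.24 against 11.44 to 12.41, with a difference of −0.61 ± 0.30 (0.368). Kdr, the main receptor for VEGF, was at 10.41, 11.92 and 11.08 in iCM-Ex, below the saline arrays (12.58 to 12.70, a difference of −1.51 ± 0.55, 0.227) and overlapping the iCM arrays at 13.53, 11.26 and 12.05. The mean of all 9 measured endothelial markers overlapped between the groups, at 9.40 to 10.12 in iCM-Ex, 9.70 to 10.46 in saline and 9.75 to 10.55 in iCM, and 5 of the 9 had a lower mean in iCM-Ex than in saline. The other 4, named after their values were seen, had higher means, by 1.16 for Cldn5, 0.75 for Esam, 0.51 for Emcn and 0.22 for Vwf. None of the 9 was called by limma in an iCM-Ex comparison. An unadjusted p under 0.05 against saline was found for Cdh5, Kdr and, in the opposite direction, Cldn5, beside 15.2% of all genes. The F test over the 3 groups called Cdh5 (limma adjusted p = 0.0486). The junction gene Esam rose in iCM relative to saline by 1.75 ± 0.41 (limma adjusted p = 0.0443). In a fit with the mean of the 9 endothelial markers as a covariate, chosen after seeing the data, Dll4 differed by −2.43 from saline (limma adjusted p = 0.0202). It differed by −1.64 from iCM (0.0379). Over all genes that fit called 298 and 1000 in these comparisons, against 68 and 208 without the covariate. The mean combines markers that went both ways, so it is a poor measure of endothelial cells, whose part in the Dll4 result was not tested.

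Means of markers of other cell types also differed between the groups that differed in Dll4. All 5 measured macrophage markers had higher means in iCM-Ex, by a median of 1.86 relative to saline and 2.33 relative to iCM. In the latter comparison the arrays did not overlap for any of the 5, against 20.2% of all genes. The mean of the 5 markers spanned 12.57 to 13.67 in iCM-Ex, 9.94 to 11.71 in iCM and 10.09 to 13.40 in saline. All 6 measured fibroblast markers had higher means in iCM-Ex than in iCM, by a median of 1.86. For 3 the arrays did not overlap and 3 had an unadjusted p under 0.05, against 20.2% and 14.5% of all genes. The non-overlapping genes included Dcn, at 19.93 on all iCM-Ex arrays, the highest value in the data, with a difference of 0.054. Relative to saline 5 of the 6 were higher in iCM-Ex (median 0.28) and all 6 were lower in iCM (median −1.30). In both, 0 had an unadjusted p under 0.05. Dcn, at 19.86 to 19.93 over all arrays, entered these counts with 0.016 and −0.038, too close to the top to tell a direction. Of 8 cardiomyocyte markers 6 had a lower mean in iCM-Ex than in saline. The largest differences, named after their values were seen, were −2.61 for the calcium channel gene Ryr2 and −2.55 for Ttn, which encodes titin. The other 2, Tnni3 (1.17) and Myl2 (0.29), were higher on all iCM-Ex arrays than on all saline arrays. Myl2 was near the highest value too, at 19.74 to 19.81 in iCM-Ex. Of 9 mural markers 5 had a lower and 4 a higher mean in iCM-Ex than in saline (median −0.04). Among them, named likewise, Abcc9 differed by −2.64, Tagln by 1.76 and Cnn1 by 1.30. Ryr2, Ttn and Abcc9 were lower on all iCM-Ex arrays than on all saline arrays, by about as much as Dll4. Relative to iCM 4 of the 8 cardiomyocyte markers were higher and 4 lower, and 5 of the 9 mural markers higher and 4 lower. An unadjusted p under 0.05 was found for 4 of the 8 and 5 of the 9, against 14.5% of all genes. Arrays did not overlap for 3 and 0, against 20.2%. The 3 were Ttn (−2.99), Ryr2 (−2.50) and Myh6 (−2.25), all lower in iCM-Ex. None of the macrophage, fibroblast, cardiomyocyte or mural markers was called by limma in iCM-Ex against saline or against iCM. Against saline the limma adjusted p was 0.242 for Ryr2, 0.127 for Ttn and 0.11 for Abcc9. Against iCM it was 0.135 to 0.419 for the macrophage markers, 0.114 for the fibroblast marker Lum and 0.0718 for Ttn. In iCM-Ex minus saline 15.2% of all genes had an unadjusted p under 0.05. Among the markers 2 of the 5 macrophage, 2 of the 8 cardiomyocyte and 2 of the 9 mural genes did. The part of these cell types in the Dll4 and Notch1 results was not tested.

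**Figure D3:**
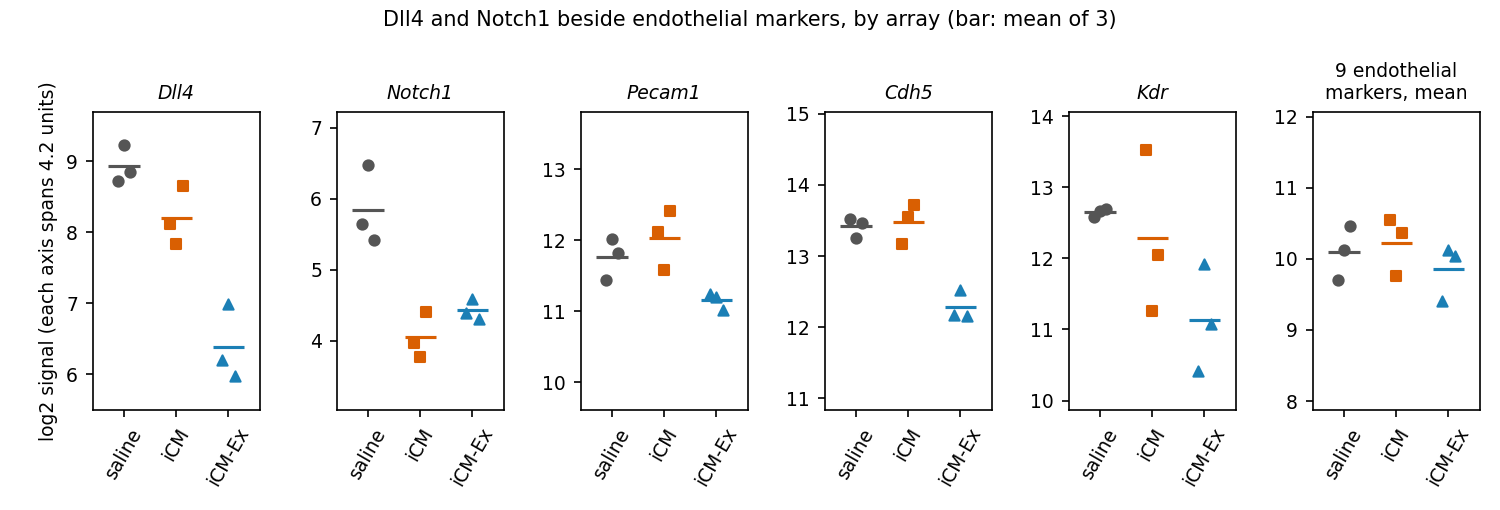
Log2 signal of Dll4, Notch1, the endothelial genes Pecam1, Cdh5 and Kdr and the mean of 9 endothelial markers, by array, with bars for the mean of 3. Every vertical axis spans the same number of log2 units, so distances can be compared between panels. Relative to saline, Dll4 is lower in iCM-Ex by 2.54, Kdr by 1.51, Cdh5 by 1.14 and Pecam1 by 0.61. Of the 9 endothelial markers 5 were lower and 4 higher.

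Jag1, the Jagged-type ligand of endothelium, smooth muscle and heart muscle, was lower after both treatments without passing the threshold. Its signal was 8.81, 9.69 and 8.63 in saline, 8.19, 7.58 and 8.11 in iCM and 8.50, 7.81 and 7.38 in iCM-Ex. No treated array reached the lowest saline array. The differences from saline were −1.08 (95% interval −1.95 to −0.22, limma adjusted p = 0.146) for iCM and −1.15 (−2.01 to −0.29, 0.202) for iCM-Ex. Between the treatments Jag1 differed by −0.064, with an interval of −0.93 to 0.80.

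Dll1, a Delta-type ligand used in somite formation, lymphocyte development and arteries, had its higher values in iCM hearts. It was at 4.87, 6.44 and 5.17 in iCM, 3.67, 4.42 and 3.93 in saline and 3.86, 4.78 and 4.40 in iCM-Ex. All saline and iCM-Ex arrays and 2 of the 3 iCM arrays were below their negative controls. The highest value, in iCM replicate 2, was the one above, on the array with fast muscle and fat markers, and the part of that tissue in the result was not tested. The difference of iCM from saline was 1.49 ± 0.43 (limma adjusted p = 0.0869) and of iCM-Ex from iCM −1.15 ± 0.43 (0.248). Without iCM replicate 2 the first was 1.02 (0.223).

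Jag2, a Jagged-type ligand, overlapped between all groups. It was at 6.63, 8.27 and 6.98 in saline, 6.72, 6.98 and 7.64 in iCM and 6.71, 6.87 and 6.77 in iCM-Ex. Saline replicate 2 was the high array. The difference of iCM-Ex from saline was −0.51 (95% interval −1.45 to 0.43) and of iCM from saline −0.18 (−1.12 to 0.77).

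Among the receptors, Notch1 encodes the receptor through which endothelial DLL4 acts. Its signal was 5.65, 6.48 and 5.42 in saline, 3.97, 3.78 and 4.40 in iCM and 4.39, 4.59 and 4.31 in iCM-Ex. All saline arrays were above their negative controls and all 6 treated arrays were below theirs, so the size of the difference is uncertain. Notch1 fell by 1.80 ± 0.33 in iCM, from 5.85 ± 0.56 to 4.05 ± 0.32 (SD, n = 3; limma adjusted p = 0.0208). In iCM-Ex the mean was 4.43 ± 0.14 and the difference from saline −1.42 ± 0.33 (limma adjusted p = 0.0966).

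The difference between the treatments was 0.38 for Notch1, with a 95% interval of −0.35 to 1.11, so the treatments were not shown to differ. On leaving out an array the iCM difference lay between −2.01 and −1.48. The limma adjusted p without saline replicate 2 was 0.0747, without iCM replicate 2 it was 0.0744, and the call was kept in the other 7 cases. It was 0.227 with control separation as a covariate.

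Notch3, the receptor of the vessel's mural cells (smooth muscle and pericytes), was at 5.56, 6.14 and 6.60 in saline. It was at 5.07, 4.80 and 5.22 in iCM, all under their negative controls, and at 5.09, 5.72 and 4.96 in iCM-Ex. The iCM arrays lay below the saline arrays and 1 iCM-Ex array lay among them. Differences from saline were −1.07 ± 0.34 for iCM (limma adjusted p = 0.107) and −0.84 ± 0.34 for iCM-Ex (0.272). The mean of 9 mural markers overlapped between groups, spanning 9.55 to 10.67 on iCM arrays, 9.95 to 11.06 on iCM-Ex arrays and 10.12 to 11.04 on saline arrays. Of the 9, 7 had a lower mean in iCM than in saline (median difference −0.90) and 5 in iCM-Ex (median −0.04). In iCM 3 had an unadjusted p under 0.05, against 20.5% of all genes, and 0 were called by limma. Pdgfrb, the growth factor receptor gene of pericytes, named after its values were seen, differed by −1.02 in iCM (limma adjusted p = 0.146) and by −1.19 in iCM-Ex, with all iCM-Ex arrays lower (0.167). The 2 mural markers with a higher mean in iCM were Cspg4 (0.76) and Myh11 (0.35). The 4 with a higher mean in iCM-Ex were Tagln (1.76), Cnn1 (1.30), Acta2 (0.46) and Kcnj8 (0.17). The part of these cells in the Notch3 values was not tested.

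Notch2, a receptor used by vessel walls, kidney and immune cells, was at 8.18, 8.95 and 10.14 in saline, 9.80, 8.97 and 8.35 in iCM and 9.39, 8.70 and 8.26 in iCM-Ex. The groups overlapped, and the spread within saline, an SD of 0.99, exceeded every difference between means. The 95% interval was −1.24 to 1.15 for iCM minus saline and −1.50 to 0.89 for iCM-Ex minus saline. The sign of the iCM difference (−0.048) turned under quantile normalisation (0.093).

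Notch4, the largely endothelial receptor, was at 6.19, 5.25 and 5.59 in saline, 6.89, 5.30 and 5.67 in iCM and 5.67, 5.62 and 5.17 in iCM-Ex. The arrays overlapped, and 2 of the 9 lay below their negative controls. The highest array was iCM replicate 1, which had the highest lung markers. The difference of iCM from saline was 0.27 (95% interval −0.67 to 1.22), and −0.20 without that array. The difference of iCM-Ex from saline was −0.19 (−1.14 to 0.76).

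The target genes Hes1 and Hey1 encode basic helix-loop-helix repressors, and neither passed the threshold in any comparison. Hes1 was at 5.01, 5.24 and 5.91 in saline, 5.34, 5.15 and 5.59 in iCM and 5.76, 5.24 and 5.96 in iCM-Ex. The groups overlapped, and 2 saline arrays and 1 iCM array lay below their negative controls. Its differences from saline were −0.029 for iCM (95% interval −0.75 to 0.69) and 0.27 for iCM-Ex (−0.45 to 0.99).

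Hey1, a target used in arteries and the developing heart, was at 8.61, 7.58 and 8.12 in saline, 8.79, 6.57 and 7.47 in iCM and 8.05, 8.02 and 7.70 in iCM-Ex. The highest and the lowest of the 9 values were both iCM arrays, replicate 1 with lung markers and replicate 2 with fast muscle and fat markers, whose part was not tested. The difference from saline was −0.49 for iCM (95% interval −1.61 to 0.63) and −0.18 for iCM-Ex (−1.30 to 0.94). On the iCM-Ex arrays, where Dll4 was lowest, Hey1 spanned 7.70 to 8.05, within the saline range.

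The wider pathway was described with a list of 50 other genes, of which 47 were measured. In iCM minus saline 1 of the 47 rose and 0 fell, where 3.67% of all genes were called, with a median difference of −0.04. Limma called 0 of 47 in iCM-Ex minus saline (median 0.13) and 0 of 47 in iCM-Ex minus iCM (median 0.01), where 0.349% and 1.07% of all genes were called. An unadjusted p under 0.05 was found for 10, 8 and 4 of the 47 in these 3 comparisons, against 20.5%, 15.2% and 14.5% of all genes. With array weights limma called 4 and 1. By non-overlap of arrays the counts were 11, 10 and 7 of 47, against 24%, 21.7% and 20.2% of all genes.

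The gene that rose was Cir1, a co-repressor that binds RBPJ. It was at 8.14, 8.82 and 8.25 in saline and 9.97, 9.43 and 10.19 in iCM, a rise of 1.46 ± 0.32 (limma adjusted p = 0.0377), and at 8.77, 8.94 and 9.41 in iCM-Ex. The call was kept on leaving out 1 of the 9 arrays, iCM-Ex replicate 1. Without the others, taken singly, the limma adjusted p was 0.0539 to 0.0937 and the rise 1.29 to 1.68, and without the 3 arrays high in lung, muscle or fat markers the adjusted p was 0.178.

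Other roles were without a call. Among the 9 measured genes of receptor cleavage, the gamma-secretase subunit gene Psenen was at 11.36, 9.45 and 10.67 in iCM, below 11.99, 12.25 and 14.04 in saline and 12.40, 13.83 and 14.47 in iCM-Ex. Its difference was −2.27 ± 0.69 for iCM minus saline (limma adjusted p = 0.099) and 3.07 ± 0.69 for iCM-Ex minus iCM (0.0688). The second passed the threshold without saline replicate 3 (0.0486) or iCM-Ex replicate 1 (0.0337), with the filter on low genes (0.044), with array weights (0.0319) and with the endothelial covariate (0.00169). It did not pass in the other 14 of 19 alternatives. Among these were the fits without iCM-Ex replicate 3 (limma adjusted p = 0.291), iCM-Ex replicate 2 (0.228) or iCM replicate 2 (0.214). With control separation as a covariate it was 1.04 (0.893). The first passed with the endothelial covariate (0.00514) and in none of the other 18 alternatives. It was −1.05 (0.632) with control separation.

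Numb, an adaptor that removes Notch receptors from the membrane, was at 8.81, 9.46 and 9.37 in iCM-Ex and 10.05, 10.74 and 11.17 in saline, a difference of −1.44 ± 0.34 (limma adjusted p = 0.102). Snw1, a co-activator of the RBPJ complex, was at 9.59, 9.53 and 9.71 in iCM-Ex, above all other arrays (8.05 to 9.01), a difference from saline of 1.09 ± 0.32 (0.15). The target gene Hes5, whose RBPJ core matches were given above, averaged 6.56 ± 0.50 in iCM, 6.29 ± 0.29 in iCM-Ex and 5.34 ± 0.42 in saline (SD, n = 3). All treated arrays lay above all saline arrays, 2 of which were below their negative controls, and the differences from saline were 1.22 (limma adjusted p = 0.0789) and 0.95 (0.227). Hes5 passed the threshold with array weights (0.0237 and 0.0365) and, for iCM, without iCM replicate 1 (0.0456). It did not pass in the other 17 alternatives for iCM and 18 for iCM-Ex. For iCM the limma adjusted p was 0.417 with control separation and 0.218 without saline replicate 2. The target gene Nrarp, a feedback inhibitor of Notch named after its values were seen, went the other way in iCM-Ex. It was at 3.70, 4.66 and 4.68 there, all under their negative controls, and at 5.22, 5.31 and 6.15 in saline, a difference of −1.21 ± 0.42 (limma adjusted p = 0.21). Of the 6 targets in the wider list, 4 had a higher and 2 a lower mean in iCM-Ex than in saline, and 3 and 3 in iCM.

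In the remaining roles the smallest p belonged to the iCM minus saline difference. It was 0.45 for the ligand-like gene Dll3 (limma adjusted p = 0.341), 0.75 for Mib2, a ubiquitin ligase for ligands (0.347), and −0.58 for Poglut1, which adds glucose to receptors (0.32). Dll3 was below 4.00 on all arrays, under the negative controls.

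**Figure D4:**
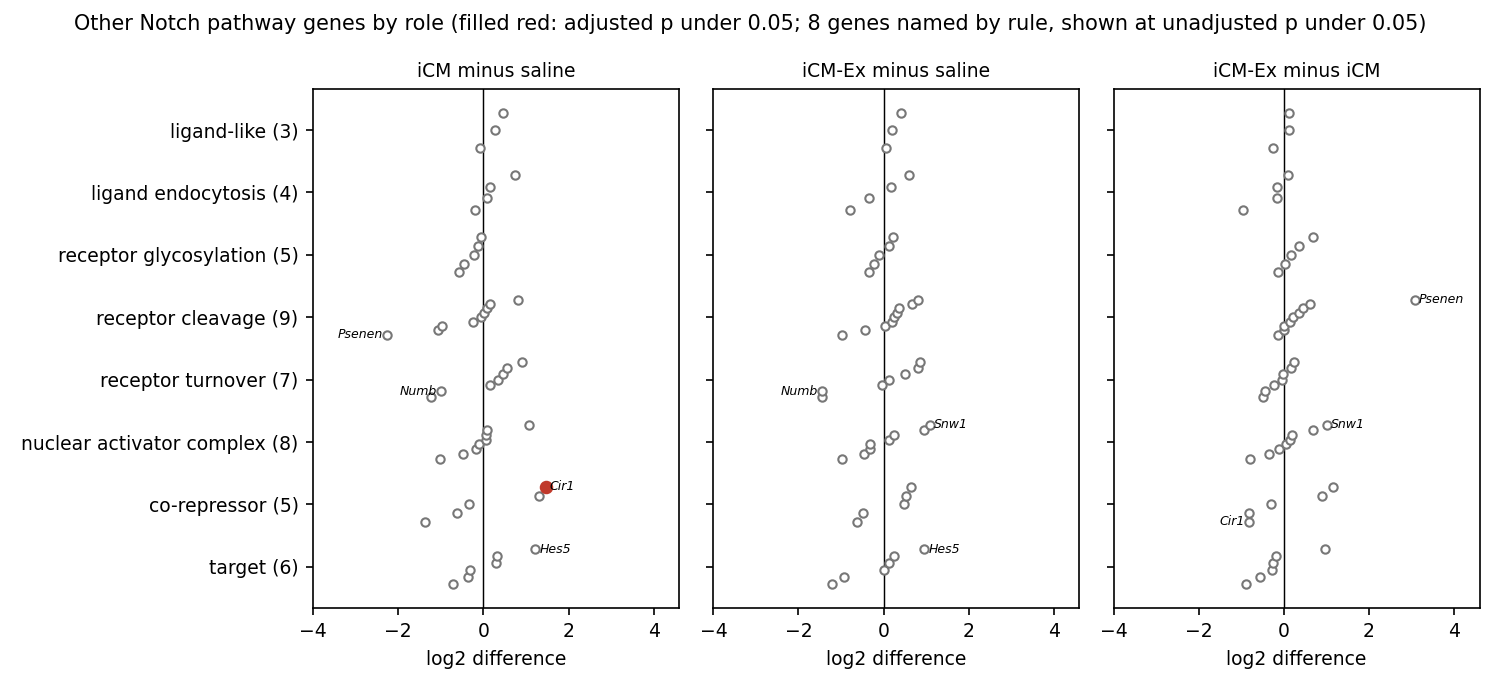
Differences of mean log2 signal (horizontal axis) for the 47 other Notch pathway genes by role (number of genes in brackets), 1 point per gene, filled red where limma's adjusted p was under 0.05. The filled point is Cir1 at 1.46 in iCM minus saline, and Psenen is the farthest from 0, at 3.07 in iCM-Ex minus iCM.

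The 3 genes whose signals were most like those of Dll4 over the 9 arrays were Phka2 (Pearson r = 0.971), a subunit of phosphorylase kinase, the amino acid transporter gene Slc38a2 (0.964) and the chromatin remodelling gene Baz2a (0.958). For Notch1 they were Decr2 (0.979), an enzyme of fatty acid oxidation in peroxisomes, the purine synthesis gene Adsl (0.979) and Arhgef10l (0.977). These were picked as the highest of all named genes. The points share 9 arrays and 3 groups, and group differences enter each r.

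**Figure D5:**
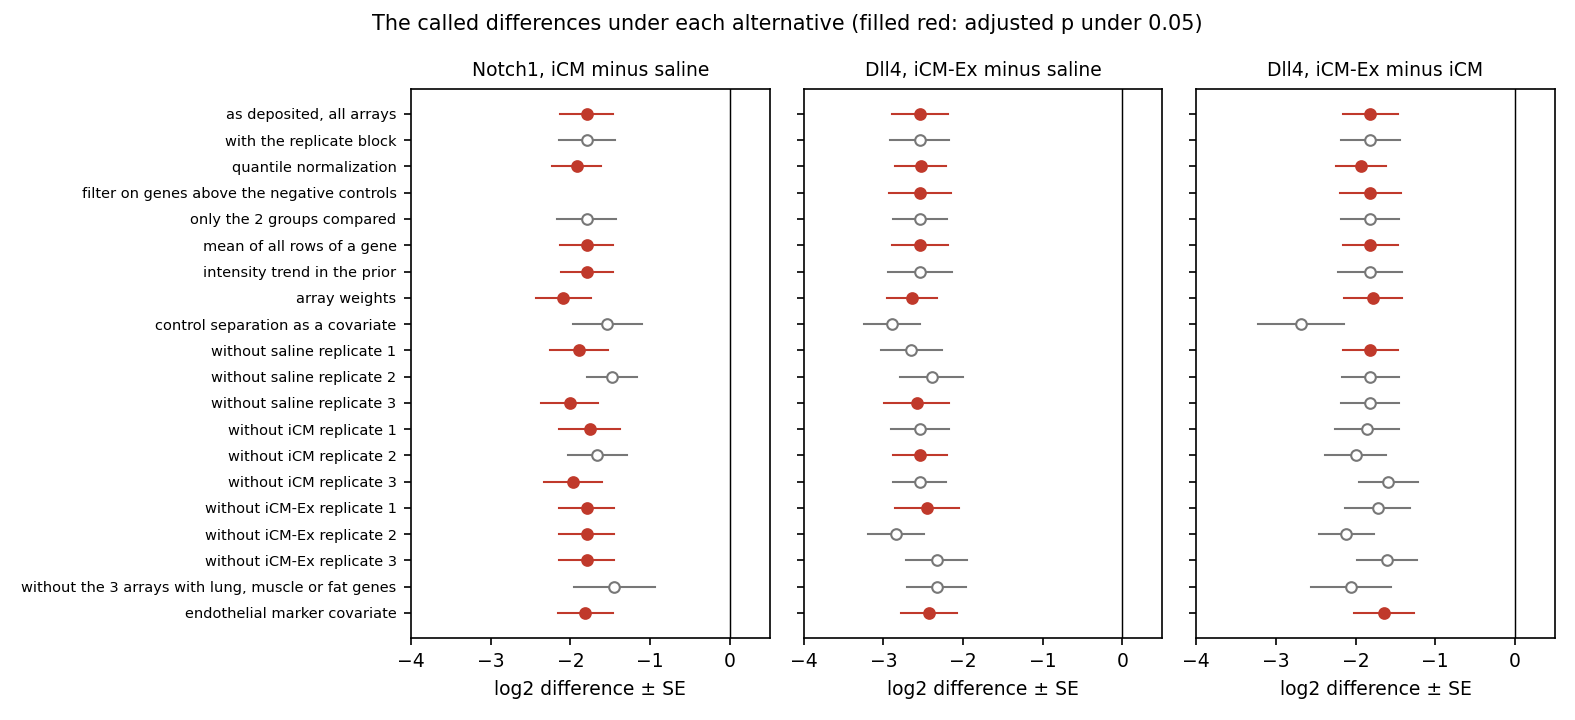
The 3 called differences (log2, bars ± SE) under each alternative, filled red where limma's adjusted p was under 0.05; Notch1 has no value under the filter, which it does not pass. All points lie left of 0, between −2.09 and −1.45 for Notch1, −2.89 and −2.33 for Dll4 against saline, and −2.69 and −1.59 for Dll4 against iCM, while many are open.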

How the data were processed

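Gene signals came from 9 Clariom S arrays, 3 per group, with 5.5 µg of labelled cDNA per sample per the labels. The authors deposited log2 signals, 1 per probe set, and used Expression Console from Affymetrix, according to the submitters' processing notes. Which version and normalisation they ran is not given in the sources used here. Values span 2.25 to 19.93, from which the log2 scale was inferred. Of 28846 rows, 19572 had a gene symbol and 19505 genes remained after keeping the brightest row of each. The rest were not tested.

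All arrays entered 1 limma fit (limma 3.58.1, R 4.3.3) with a mean per group and eBayes (4.23 prior and 6 residual degrees of freedom). P-values were adjusted by Benjamini-Hochberg over all genes within a comparison. An exact permutation test of 3 against 3 arrays cannot give p below 0.1. The 3 other genes of the pathway list were not analysed here. The fit was tested on simulated data. The members and lists were chosen with earlier results of these data known. All members were named, with pathway genes past the threshold or else the smallest p per role, the 3 genes most like each called member, and set markers. Alternatives were a replicate block, quantile normalisation, a filter at the negative controls, only 2 groups, mean of rows, intensity trend, array weights, control separation or endothelial markers as a covariate, and leaving out arrays. Arrays give no read depth, so their number limits the precision.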

Additional observations from a re-analysis of the deposited data

How the results depend on the processing

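The 30 member differences (10 genes, 3 comparisons) were recomputed under up to 19 alternatives, which gave 564 values. Of these 497 kept direction and side of the threshold, 30 lost a call (all Dll4 or Notch1), 2 gained one and 35 changed sign, none of the last with a call. The limits are 3 arrays per group, values near the negative controls for Notch1, Notch3, Notch4, Dll1 and Hes1, and control separation that differs between groups. Adjusted p also moves with how many genes pass in all. The cause of the changes below was not tested, except that the filter leaves out Notch1 and Dll1 by construction.

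Members called, 1 in each comparison, numbered 0 in all 3 with the replicate block, in fits of only the 2 groups compared, with control separation as a covariate and without the 3 arrays high in lung, muscle or fat markers. They numbered 0 in iCM minus saline with the filter, 0 in both iCM-Ex comparisons with the intensity trend, and 3 in iCM-Ex minus saline with array weights (Notch1, −1.71, adjusted p = 0.016, and Jag1, −1.55, adjusted p = 0.0323, beside Dll4). On leaving out an array each count was 0 to 1. The F test's 2 became 1 with the block, the filter or the covariate, 0 without the 3 arrays, and 0 to 2 on leaving out an array. In the wider list the 1 call of iCM minus saline was 0 with the block, 2 groups, trend, control separation and without the 3 arrays, 2 under quantile normalisation, 5 with array weights and 3 with the endothelial covariate. It was 0 to 2 on leaving out an array. The 0 of iCM-Ex minus saline was 4 with array weights, and the 0 of iCM-Ex minus iCM was 1 with the filter, array weights and the endothelial covariate, and 0 to 1 on leaving out an array.

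No pairing of the arrays by replicate number was evident: deviations of same-numbered arrays correlated at −0.26 to 0.07 over 9 pairs, and 0 of 9 arrays correlated best with their own number. These deviations also hold the lung, muscle and fat signal of single arrays, so the check cannot exclude a pairing. With the number as a block the limma adjusted p was 0.073 and 0.0893 for Dll4 and 0.0505 for Notch1.

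Sign changes, with control separation as a covariate, gave −0.054 for Notch1 and −0.61 for Notch3 (both iCM-Ex minus iCM), 0.29 for Notch2, 0.059 for Jag2, 0.10 for Hes1 and 0.24 for Hey1 (iCM minus saline), and −0.91 for Hey1 (iCM-Ex minus iCM). Without the 3 arrays they gave 0.69 for Notch2, 0.0404 for Jag1 and −0.091 for Hes1 (iCM-Ex minus iCM), and −0.011 for Notch4, 0.35 for Jag2 and 0.20 for Hes1 (iCM minus saline). Quantile normalisation gave 0.093 for Notch2 (iCM minus saline), and array weights 0.059 for Notch4 and 0.11 for Hey1 (iCM-Ex minus saline). On leaving out an array the ranges that crossed 0 in iCM minus saline were −0.50 to 0.48 for Notch2, −0.20 to 0.60 for Notch4, −0.51 to 0.31 for Jag2, −0.22 to 0.23 for Hes1 and −1.08 to 0.028 for Hey1. In iCM-Ex minus saline they were −0.76 to 0.22 for Notch2, −0.40 to 0.068 for Notch4 and −0.44 to 0.071 for Hey1. In iCM-Ex minus iCM they were −0.60 to 0.12 for Notch2, −0.0059 to 0.38 for Notch3, −0.79 to 0.0062 for Notch4, −0.37 to 0.19 for Jag1 and −0.21 to 0.90 for Hey1.

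Over all genes the 716, 68 and 208 calls and the 647 of the F test were 338, 0, 18 and 205 with the block, 279, 1 and 13 in fits of 2 groups, 1500, 1187, 559 and 2108 with array weights, 33, 5, 0 and 74 with control separation, and 1223, 298, 1000 and 1537 with the endothelial covariate. With the intensity trend the last 3 were 12, 118 and 418, and the filter gave 323 for iCM-Ex minus iCM. On leaving out an array they spanned 126 to 803, 0 to 163, 0 to 401 and 43 to 723. The share of calls that were higher was 36.6% in iCM minus saline and 74.5% in iCM-Ex minus iCM, and 48.6% and 53.2% under quantile normalisation.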
